A study of Drosophila melanogaster with 2 samples.

Results

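The cytoplasmic ribosomal protein genes of Drosophila melanogaster were examined in a map of Zelda binding in whole embryos. Members were the protein-coding genes whose symbol is RpL or RpS followed by a digit, or RpLP0, RpLP1, RpLP2 or sta, which gave 92 of 13968 protein-coding genes. Of these, 53 belong to the large subunit, among them the stalk genes RpLP0, RpLP1 and RpLP2, and 39 to the small subunit, among them sta. The flies were 1 transgenic line, vfl-GFP, in which the product of zld (also named vfl), Zelda, carried GFP at its C-terminal end. Whole embryos of mixed sex, 0 to 24 hours old, were used for chromatin immunoprecipitation (ChIP-seq), with an antibody to GFP per the samples' description, although the antibody field reads vfl. The only group held biological replicates 2 and 3, with no treatment and no other genotype, and control reads were not analysed here. Ages and cell types were mixed in each sample, so no value belongs to 1 stage or tissue.

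Zelda is a zinc finger pioneer factor that binds early in the embryo, opens chromatin and helps to start transcription of the zygotic genome. Ribosomal protein genes encode the protein parts of the large and small ribosomal subunits, are transcribed at high rates in most cells, and in flies are known for the Minute phenotype of slow growth that follows loss of 1 copy. Many of their promoters start transcription at a pyrimidine-rich TCT initiator in place of the usual initiator, and the promoter factors DREF and M1BP are known to act at genes of this kind. The comparison asked where the tagged protein was found at these genes, beside all protein-coding genes.

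Most ribosomal protein genes had a summit of a thresholded peak near a start, and it tended to lie within 100 bp of that start. A gene is called bound here when the summit of a thresholded peak, one that the authors kept for reproducibility between the replicates, lay within 1 kb of an annotated transcript start. By this rule 53 of the 92 ribosomal protein genes (57.6%) were bound, against 2750 of all 13968 protein-coding genes (19.7%). Among thresholded peaks above the median signal of that list the count was 35 (38.0%), against 11.2% of all genes. Some summit of the relaxed pooled list, which also takes in background, lay within 1 kb of a start at 89 of the 92 genes (96.7%), against 62.9% of all genes. At these 89 genes the strongest summit had a median pooled rank of 2036 and a median signal of 74.3, against a median rank of 5624 and a median signal of 40.9 at the 8780 genes of the genome with such a summit. Signal is the authors' own value per peak, used only within a list, and rank 1 is the highest signal. The 2 replicates form 1 group, so no test over samples was possible, and differences between shares of genes were not tested. The depth of sequencing is unknown, as peak lists carry no counts of reads.

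**Figure D1:**
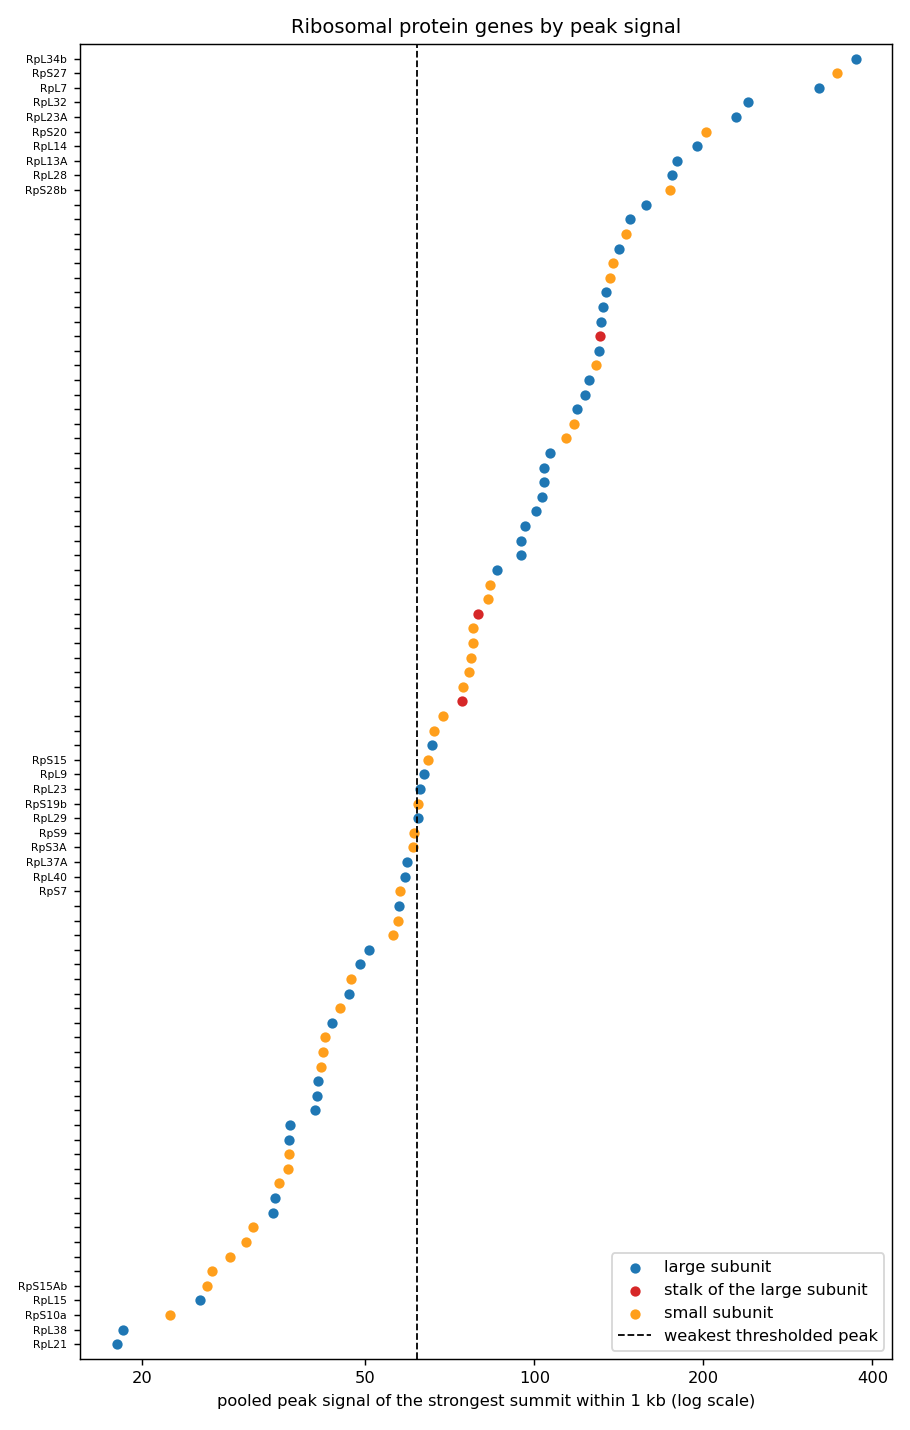
Pooled peak signal (log scale) of the strongest summit within 1 kb of a start for the 89 ribosomal protein genes that had one, coloured by subunit; the dashed line marks the weakest thresholded peak, and only the 10 strongest genes, the 5 on each side of the line and the 5 weakest are labelled. Signals ran from 18.0 at RpL21 to 373 at RpL34b, with no gap at the threshold.

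The signals formed a continuous series. Among the bound genes they ranged from 62.0 to 373 with a median of 114, against a median of 96.1 over all 2750 bound genes. The genes just inside the threshold were RpS15 (signal 64.5, rank 2657), RpL9 (63.7, rank 2718), RpL23 (62.5, rank 2810), RpS19b (62.1, rank 2850) and RpL29 (62.0, rank 2854). Just outside it were RpS9 (61.1, rank 2921), RpS3A (60.8, rank 2954), RpL37A (59.3, rank 3099), RpL40 (58.7, rank 3156) and RpS7 (57.7, rank 3233). The RpL40 summit lay 863 bp upstream, past the start of the divergent gene CG3702, 602 bp upstream. The bound and unbound genes on either side of the threshold therefore differed little in signal.

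The strongest members ranked high in both replicates. RpL34b, a large subunit gene, had a pooled signal of 373 (rank 54), with a signal of 245 (rank 51) in replicate 2 and 126 (rank 90) in replicate 3. RpS27, which encodes a zinc finger protein of the small subunit, had a pooled signal of 345 (rank 69), and stood at rank 70 in replicate 2 and rank 75 in replicate 3. RpL7, a large subunit gene, had a pooled signal of 321 (rank 84), with rank 85 in replicate 2 and rank 95 in replicate 3. RpL32, long known as rp49 and used as a reference transcript in fly work, had a pooled signal of 240.4 (rank 164), with ranks 178 and 144. RpL23A, a protein of the polypeptide exit tunnel region, followed at 228 (rank 187; ranks 177 and 248). RpS20 reached 202 (rank 250) and was the least even of these, at rank 189 in replicate 2 and rank 419 in replicate 3. RpL14 (195), RpL13A (179), RpL28 (176) and RpS28b (174) completed the 10 strongest, each between ranks 271 and 437 in both replicates.

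The starts of these 10 genes are shown because 8 of them carry a match to the TCT initiator. This word was sought at any annotated start, and 55 of the 92 members had it. Each sequence runs 5′ to 3′ on the strand of the gene, from 30 bases before to 10 bases after an annotated start, on the Release 6 genome (dm6). Where a gene with the word has several annotated starts, the one shown was chosen for its word. It need not be the start nearest to the summit. Capitals mark NCTTTN with C or T for each N, with the first C of CTTT within 5 bp of the start. RpS20 and RpS28b have no such word at any annotated start.
RpL34b, chr3R:9401216-9401256, minus strand: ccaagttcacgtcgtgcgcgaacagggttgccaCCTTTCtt.
RpS27, chr3R:25247462-25247502, minus strand: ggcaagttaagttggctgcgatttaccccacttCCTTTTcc.
RpL7, chr2L:10201070-10201110, plus strand: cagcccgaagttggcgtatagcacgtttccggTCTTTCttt.
RpL32, chr3R:30046151-30046191, minus strand: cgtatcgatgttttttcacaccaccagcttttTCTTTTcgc.
RpL23A, chr3L:1668644-1668684, minus strand: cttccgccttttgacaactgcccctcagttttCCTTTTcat.
RpS20, chr3R:20822151-20822191, plus strand: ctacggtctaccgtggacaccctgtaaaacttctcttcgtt.
RpL14, chr3L:8600976-8601016, plus strand: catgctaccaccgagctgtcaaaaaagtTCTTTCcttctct.
RpL13A, chr3R:5624444-5624484, plus strand: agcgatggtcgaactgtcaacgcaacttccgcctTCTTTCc.
RpL28, chr3L:3222948-3222988, minus strand: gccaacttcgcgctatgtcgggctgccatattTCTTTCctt.
RpS28b, chrX:9554593-9554633, plus strand: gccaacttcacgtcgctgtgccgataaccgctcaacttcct.

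The TCT word was common in the family and rare elsewhere. It lay within 5 bp of an annotated start, on the sense strand, in 55 of 92 ribosomal protein genes (59.8%), against 297 of 13968 protein-coding genes (2.13%). In 48 of the 55 genes the first C lay 2 to 5 bp downstream of the annotated start, most often at 4 bp (18 genes). With only the start farthest upstream of each gene counted, 30 members had the word, against 1.38% of all genes; with a window of 10 bp, 75 had it, against 4.09%. Both of these settings were added after the data were seen. Of the 55 members with the word 35 (63.6%) were bound, and of the 37 without it 18 (48.6%) were. Among the 242 other genes with the word 73 (30.2%) were bound. Ip259, which shares its start and word with RpS27A, is counted among these.

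Summits lay close to the start. In the 53 bound ribosomal protein genes the summit had a median distance of 47 bp from the nearest start of the gene, against 141 bp over all bound genes. It was within 100 bp at 41 of them (77.4%), against 37.7% of all bound genes, and within 200 bp at 50 (94.3%), against 64.0%. It lay upstream of the start at 43 of the 53 (81.1%), near the 85.7% of all bound genes, with a signed median of −43 bp. The 10 members with a summit on the downstream side had it within 48 bp of the start. At the 35 bound members with a TCT word the summit was upstream of its first C in 32, and within 100 bp upstream in 25, with a median of −68 bp. At the 73 other bound genes with the word the median was −249 bp. In both groups the start was chosen for its word. For RpS27 the summit was 28 bp upstream of the nearest start, for RpL14 33 bp and for RpL13A 63 bp. The starts of RpS27 and RpL7 shown above are not those nearest to the summit. From the first C of their words the summits lay at −74 bp and −83 bp (negative is upstream).

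**Figure D2:**
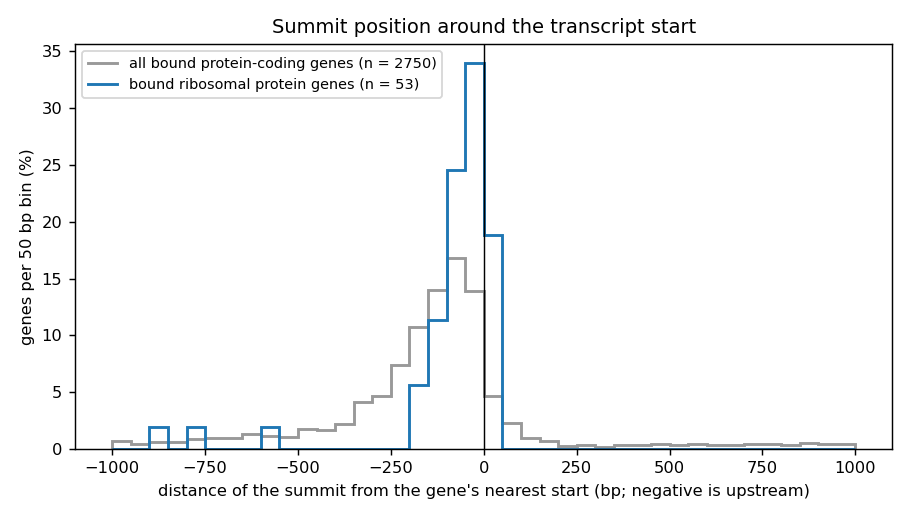
Share of genes per 50 bp bin (vertical axis, %) by distance of the strongest thresholded summit from the gene's nearest start (horizontal axis, bp, negative upstream), for 53 bound ribosomal protein genes and 2750 bound protein-coding genes. Ribosomal protein genes are gathered next to the start, with a median distance of 47 bp against 141 bp.

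The bound members with distant summits had another gene's start nearby. RpS19b (882 bp upstream), RpS28b (759 bp) and RpS15 (580 bp) were the bound members whose strongest summit lay beyond 200 bp, and at each of them the start of a neighbour was nearer to it, CG5854 at 500 bp, l(1)G0320 at 114 bp and CG4927 at 272 bp. RpS28b also had a weaker thresholded summit, with a signal of 95.1, 4 bp upstream of its own start. A neighbour's start was also nearer at RpL32 (CG7943, 145 bp, against 164 bp to RpL32), RpL34a (Trmt61, 85 against 144 bp) and RpL13 (Dref, 22 against 106 bp). In all, another gene was nearer at 6 of 53 bound members (11.3%), against 32.3% of all bound genes. Ties were not counted as nearer. At RpS27A the nearest start of Ip259 was just as near, at 63 bp, because both genes are annotated from the same start. Ip259 is one of the other bound genes with the TCT word, and its word is that of RpS27A. A divergent gene, one on the other strand whose start lies upstream within 1 kb, was present at 55 of the 92 members (59.8%), against 36.2% of all genes. Bound genes were 37 of these 55 members (67.3%) and 16 of the 37 members without a divergent gene (43.2%). Over all genes the shares were 35.8% with and 10.6% without a divergent gene. Peaks with a median width of 400 bp cannot assign binding to either gene where the starts are this close.

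RpL13 and Dref share the shortest such promoter among the 6 genes above. Dref encodes DREF, the factor that binds TATCGATA. The 83 bases between their nearest starts are shown on the strand of RpL13, with ATCGATA in capitals. The DREF word TATCGATA itself is not in these bases.
RpL13 to Dref, chr2L:9967230-9967312, plus strand: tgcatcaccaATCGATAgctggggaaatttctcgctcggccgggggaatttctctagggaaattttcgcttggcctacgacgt.
The summit, at position 9967207, lay 22 bp downstream of the start of Dref and 106 bp upstream of that of RpL13, and had a pooled signal of 107 (rank 991). It ranked 878 in replicate 2 and 1378 in replicate 3, so 1 peak counts for both genes.

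The DREF and M1BP words were more frequent at promoters of the family than over all promoters. Words were sought on both strands from 250 bases before to 50 after the start farthest upstream. TATCGATA, the DREF word, was in 28 of 92 promoters (30.4%), against 9.36% of all promoters of the same length. GGTCACAC, the M1BP word, was in 15 (16.3%), against 7.70%. TATAAA was in 45 (48.9%), close to the 45.9% of all promoters, and AGTGTTG in 10 (10.9%), against 7.30%. Of the 28 members with the DREF word 14 were bound, and of the 64 without it 39 were (60.9%). Over all genes 33.2% of those with the word and 18.3% of those without it were bound.

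CAGGTAG, the Zelda word, was not found in the windows examined. It was in 0 of 92 promoters, which allows a share of up to 3.26% by counting error alone, against 1.64% of all promoters. Within 100 bp of the summit it was in 0 of the 53 bound members, which allows up to 5.66%, against 1.24% over all bound genes. At these numbers the family cannot be told apart from all genes in this respect. TAGGTAG, a relative of the word, lay near the summit of RpLP1 alone, and CAGGTAA near none. Near the summits TATCGATA was found at 11 of 53 bound members (20.8%), against 11.2% of all bound genes. GGTCACAC was found at 7 (13.2%), against 5.35%. AGTGTTG and TATAAA were less frequent there than over all bound genes, at 3 (5.66%) against 13.4% and at 10 (18.9%) against 30.5%. Windows around the summits of bound members had a median GC content of 41.8%, against 37.3% over all bound genes.

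**Figure D3:**
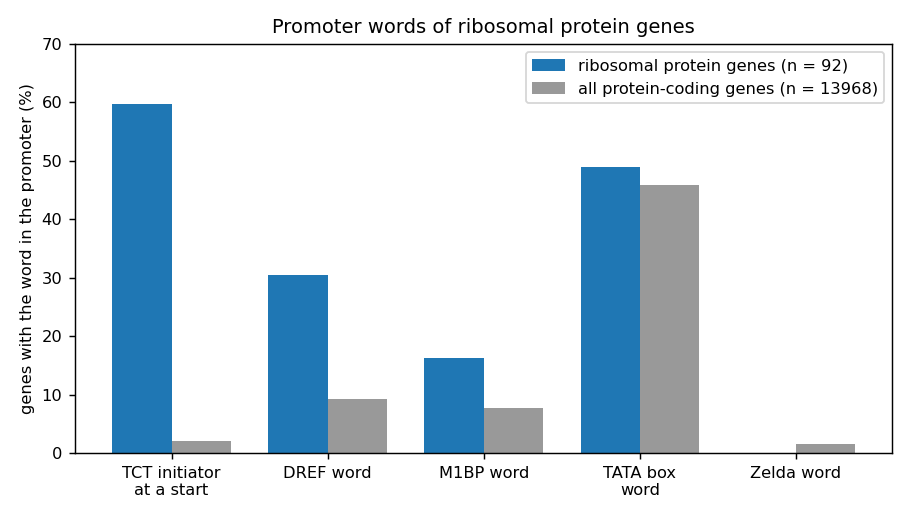
Percentage of promoters (vertical axis) that hold each word, for the 92 ribosomal protein genes and all 13968 protein-coding genes. The TCT word, labelled TCT initiator, was sought within 5 bp of any start. The other words were sought from 250 bases before to 50 after the start farthest upstream. The TCT word was in 59.8% against 2.13%, and the Zelda word in none of the 92 against 1.64%.

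Examples of the DREF and M1BP words near summits are shown on the strand of the gene, with the word in capitals and 10 bases to each side. All are in bound members, and a match is a description, not a site.
RpL28, chr3L:3223035-3223062, minus strand: acgaaatgctTATCGATAgttgccctgc.
RpS25, chr3R:11216329-11216356, minus strand: caccaccaacTATCGATAggcaggcgag.
RpS12, chr3L:13023301-13023328, plus strand: tctgcgaaacTATCGATAtttgtaccaa.
RpL27, chr3R:25685074-25685101, minus strand: tgccactaagTATCGATAaaaagacgac.
RpLP0, chr3L:22076055-22076082, plus strand: ccatcgaagcGGTCACACtgggtgccgc.
RpLP1, chr2L:419924-419951, plus strand: tcatcggcgcGGTCACACtgcatatcaa.
RpL7, chr2L:10200980-10201007, plus strand: tccgcggccaGTGTGACCgtttggccga.
The middle of the word lay 6 bp from the summit at RpL28 (signal 176), 18 bp at RpS25 (signal 138), 18 bp at RpS12 (signal 118), 17 bp at RpL27 (signal 94.5) and 5 bp at RpLP0 (signal 131). At RpLP1 it lay 33 bp from the summit and at RpL7 26 bp. Other bound members with TATCGATA near the summit included RpL19, RpL34a, RpL36, RpL41, RpS29 and RpS30, with signals from 104 at RpL19 to 141 at RpL41.

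Large subunit genes were bound at 33 of 53 (62.3%) and small subunit genes at 20 of 39 (51.3%), against 19.7% of all genes. The median signal of the bound genes was 123 in the large subunit, with a range from 62.0 to 373. In the small subunit it was 82.9, with a range from 62.1 to 345, so the ranges overlapped almost fully. Among thresholded peaks above the median signal the counts were 26 of 53 and 9 of 39, against 11.2% of all genes. The difference between the subunits was not tested.

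All 3 genes of the stalk, the flexible arm of the large subunit that recruits elongation factors, were bound. RpLP0, the base of the stalk, had a signal of 131 (rank 655), with rank 835 in replicate 2 and rank 561 in replicate 3. RpLP1 had 79.3 (rank 1797) and was uneven, at rank 3202 in replicate 2 and rank 1103 in replicate 3. RpLP2 had 74.3 (rank 2036), with ranks 1705 and 2717.

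Other large subunit genes spanned the whole range. RpL11, part of the complex with 5S RNA, was bound with a signal of 148 (rank 493), while its partner RpL5 was not (34.2, rank 7749; rank 29301 in replicate 2 and 4836 in replicate 3). RpL3, which lies near the peptidyl transferase centre, was bound (104, rank 1045). RpL24, which forms a bridge between the subunits, was bound (134, rank 617), as was RpL41, which encodes a very short peptide (141, rank 539). RpL10, which is needed for joining of the subunits, was not bound (41.0, rank 5592). Nor was RpL40, made as a fusion with ubiquitin (58.7, rank 3156, from a summit 863 bp upstream). RpL15, RpL38 and RpL21 had the weakest summits of the large subunit, at ranks 13208, 23125 and 24072, and RpL21 had none in replicate 2. The pooled summits of RpL15 and RpL38 lay 593 and 603 bp downstream of the start. In replicate 3 RpL38 had a summit 111 bp downstream, at rank 7119.

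Small subunit genes were also divided. RpS12, known in flies for its part in cell competition, was bound (118, rank 817), and so was RpS27A, the other gene made as a ubiquitin fusion (77.7, rank 1866). RpS2, whose fly mutant is string of pearls, was bound at pooled rank 1902, but its rank was 5547 in replicate 2 against 768 in replicate 3. The gene sta, the small subunit protein SA, had 83.2 (rank 1649), with ranks 1433 and 2880. RpS23, a protein of the decoding centre, was bound (74.5, rank 2021). RpS6, the target of S6 kinase, was not bound (45.1, rank 4802), and its strongest summit lay 487 bp upstream, towards the divergent gene bys. RpS3 (28.7, rank 10618) and RpS13 (26.7, rank 12075) were not bound. RpS3A, the only member on chromosome 4, fell just short (60.8, rank 2954).

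Most of the 39 genes that were not bound had a summit below the threshold. A relaxed pooled summit lay within 1 kb at 36 of the 39 (92.3%), and within 200 bp of a start at 22 (56.4%). Over all genes, bound ones included, 62.9% had such a summit within 1 kb. The shares over unbound genes alone were not counted. RpL10Aa, RpL22-like and RpL37-2 had no pooled summit in the window. RpL10Aa had a weak one in replicate 2 alone (signal 12.7, rank 20456), and RpL22-like and RpL37-2 had none in any list.

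Paralogue copies differed in being bound in 5 of 12 pairs. No such count was made for pairs of other genes, and differences within pairs were not tested. Members whose symbols differ by a final a or b or 1 or 2, or by the ending -like, gave 12 pairs. Both copies were bound in 3 pairs, 1 copy in 5 and neither in 4. With only the gene nearest to each summit counted, or only thresholded peaks above the median signal, both copies were bound in 1 pair. Of the 24 genes in pairs 11 were bound (45.8%), against 42 of the 68 in no pair (61.8%). The same copy had the higher signal in both replicates in 10 of the 12 pairs, with a copy without a summit counted as the lower one. RpS28-like was not paired, since no gene is named RpS28; it was not bound (36.6, rank 6876).

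**Figure D4:**
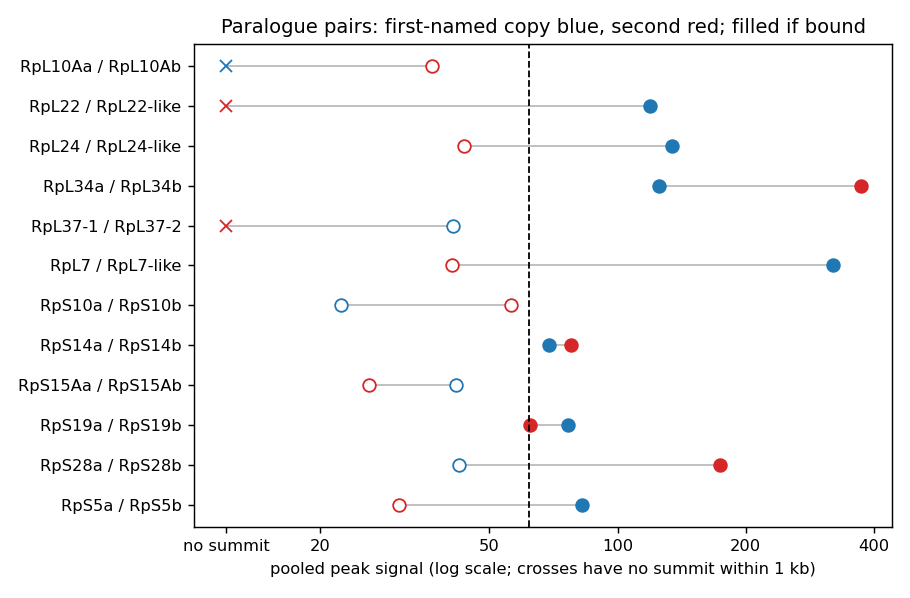
Pooled peak signal (log scale) of both copies of the 12 paralogue pairs, the first-named copy in blue and the second in red; filled circles are bound, open circles are not, crosses have no pooled summit within 1 kb, and the dashed line marks the weakest thresholded peak. RpL7 and RpL7-like lie farthest apart among pairs with both signals, at 321 and 40.8. The RpL7-like summit lay 602 bp upstream of its start.

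In the large subunit the copies were far apart in signal. RpL7 had 321 and RpL7-like 40.8, a ratio of 7.87, with ranks 85 and 4507 in replicate 2 and 95 and 9105 in replicate 3. The RpL7 summit lay 16 bp from its nearest start. That of RpL7-like lay 602 bp upstream, past the start of the divergent gene JhI-21, 284 bp upstream. RpL34b had 373 and RpL34a 125, a ratio of 2.98; both were bound, and RpL34b was the higher in replicate 2 (rank 51 against 630) and in replicate 3 (rank 90 against 941). RpL24 had 134 and RpL24-like, whose relatives in yeast act in ribosome assembly, 43.7, a ratio of 3.07. The RpL24-like summit lay 286 bp upstream, past the start of the divergent gene CG5276, 156 bp upstream. RpL22 had 119 (rank 792) while RpL22-like, known in flies for its expression in the testis, had no summit. RpL37-1 (41.1, rank 5569) and RpL10Ab (36.6, rank 6871) were not bound, and their copies RpL37-2 and RpL10Aa had no pooled summit.

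In the small subunit the pairs RpS14a and RpS14b, which lie side by side on X, had close signals of 68.9 (rank 2343) and 77.9 (rank 1860). Their order depended on the replicate, with ranks 2507 and 2537 in replicate 2 and 2640 and 1712 in replicate 3. Coding sequences of such copies can be near-identical, and how the authors placed reads with more than 1 match is not given in the sources used here. RpS19a had 76.3 (rank 1933) and RpS19b, known in flies for its expression in germ cells, 62.1 (rank 2850); RpS19b was the higher in replicate 2 (rank 2337 against 2637) and the lower in replicate 3 (rank 5727 against 1649). The RpS19b summit was the one 500 bp from CG5854 described above. RpS5a had 82.6 (rank 1669) and RpS5b, known in flies for its expression in the ovary, 30.7 (rank 9399), a ratio of 2.69, which was 1.46 in replicate 2 and 2.40 in replicate 3. RpS28b had 174 and RpS28a 42.4, a ratio of 4.11, which was 4.83 in replicate 2 and 2.37 in replicate 3. That summit of RpS28b was the one nearer to a neighbour, and the summit at its own start had 95.1. The RpS28a summit lay 705 bp downstream of its start, beyond the end of that 304 bp gene. RpS10b (56.1, rank 3379) and RpS10a (22.4, rank 16517) were not bound, nor were RpS15Aa (41.8, rank 5452) and RpS15Ab (26.1, rank 12600). The RpS15Ab summit lay 873 bp downstream of its start, beyond the end of that 724 bp gene.

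Starts of both copies are shown for 3 pairs that differ in how the word is shared. RpS5a and RpS5b both hold the TCT word, RpS19a holds it and RpS19b does not, and neither RpS10b nor RpS10a does. Windows and capitals are as above.
RpS5a, chrX:17148254-17148294, minus strand: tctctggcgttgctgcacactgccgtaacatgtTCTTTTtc.
RpS5b, chr3R:14901553-14901593, minus strand: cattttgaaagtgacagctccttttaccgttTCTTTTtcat.
RpS19a, chrX:16637864-16637904, plus strand: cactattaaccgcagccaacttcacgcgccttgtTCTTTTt.
RpS19b, chr3R:23933520-23933560, minus strand: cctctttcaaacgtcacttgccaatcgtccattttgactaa.
RpS10b, chrX:19598001-19598041, plus strand: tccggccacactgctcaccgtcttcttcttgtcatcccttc.
RpS10a, chr3R:27652730-27652770, plus strand: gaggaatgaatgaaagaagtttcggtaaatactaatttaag.
Over all 12 pairs the word was in both copies of 3, in 1 copy of 5 and in neither of 4. RpL34b holds it and RpL34a does not, while RpL22, the bound copy of its pair, does not.

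Most members found in one replicate were found in the other. Each replicate's own strongest 2876 peaks, as many as the thresholded list holds, gave 51 bound members in replicate 2, against 19.3% of all genes, and 51 in replicate 3, against 19.4%. The lists shared 42 members (45.7% of the family, against 14.6% of all genes in both lists). In replicate 2 alone 9 members were found (9.78%, against 4.75% of all genes). In replicate 3 alone 9 were found (9.78%, against 4.87%). All 42 shared members were thresholded, as were 7 of the 9 of replicate 2 alone and 4 of the 9 of replicate 3 alone. Across the 86 members with a summit in both relaxed lists, Spearman's rho between the signals was 0.784, and Pearson's r of their log2 values was 0.803. The 7642 such genes of the genome gave 0.748 and 0.811. These coefficients are descriptions over genes of the same 2 libraries, and genes are not replicates. Among bound members the best summits of the replicates lay a median of 29 bp apart, and within 50 bp at 41 of 53. Thresholded peaks were kept for reproducibility between these same replicates, so closeness there is partly built in. Over the 86 members with a summit in both relaxed lists the median was 38.5 bp.

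**Figure D5:**
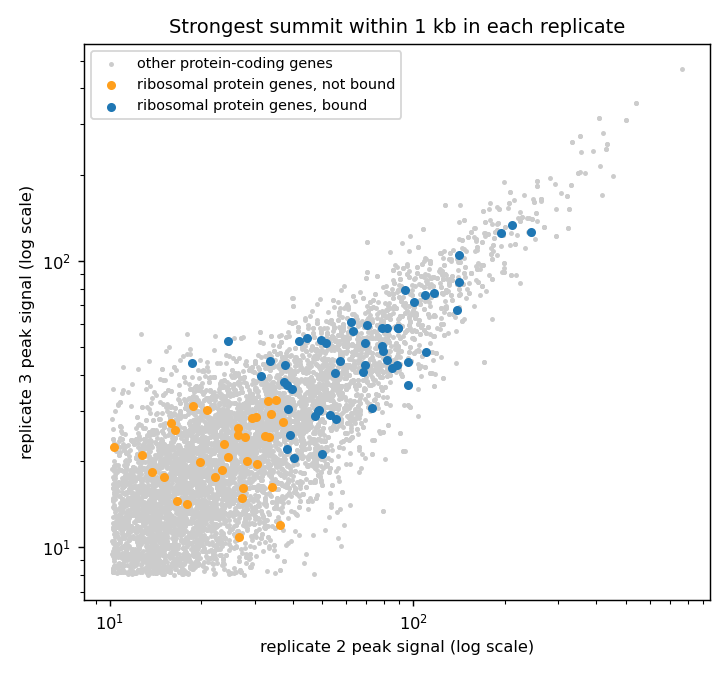
Peak signal of the strongest summit within 1 kb in replicate 2 (horizontal) and replicate 3 (vertical), both on log scales, for protein-coding genes with a summit in both; bound ribosomal protein genes are blue, unbound ones orange and other genes grey. The 86 ribosomal protein genes follow the cloud of all genes, with a Spearman rho of 0.784 against 0.748.

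In all, 18 members (19.6%) were in the strongest list of 1 replicate alone, RpL29, RpS2 and RpS26 among them. Over all genes 4.75% were in that of replicate 2 alone and 4.87% in that of replicate 3 alone. The largest ratios of ranks between the replicates were as follows. The rank of RpL29 was 9333 in replicate 2 against 1140 in replicate 3, that of RpS2 5547 and 768, and that of RpL5 29301 and 4836. In the other direction RpS26 had ranks 2813 and 16068, and RpL26 had 418 and 1716. Both ranks of RpL26 lay within the strongest 2876, and both of RpL5 lay outside.

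Other genes tied to ribosomes and translation were counted whole, list by list. Of 7 translation elongation genes 4 (57.1%) were bound, in each replicate's own list as well, namely eEF1gamma (signal 161, rank 408), eEF2 (117, rank 830), eEF1alpha1 (109, rank 954) and eEF5 (95.2, rank 1248). Their summits lay 15 to 62 bp upstream of the start, and eEF2 and eEF5 hold the TCT word. Of 25 ribosome biogenesis genes 10 (40.0%) were bound, led by eIF6 (475, rank 27), which keeps the subunits apart, Ns2 (207), Fib, the fibrillarin gene (111), and Nle (111). Of 7 regulators of ribosomal protein production 3 were bound: Dref (107), Thor, the 4E-BP gene (97.7), and M1BP (61.9, rank 2868). Myc, S6k, Trf2 and foxo were not. The share of all genes is 19.7% throughout.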

How the data were processed

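The dm6 peak lists analysed were the relaxed list of each replicate, the relaxed pooled list, and the list that the authors thresholded for reproducibility. The signal value of each peak was set by the authors, as deposited, and its scaling between libraries is not given in the sources used here, so signals were compared only within a list and ranks across lists. The deposited −log10 q value of each peak, also the authors' own, was not used for ranking. For the peak caller and the aligner, names and versions were not given in the sources used here. The 2876 thresholded peaks had signals from 61.8 to 1231, and each relaxed list held 30000 peaks. Depth is unknown, so its effect on the precision could not be computed.

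Summits (column 2 plus column 10) were matched to the 19630 starts of 13968 protein-coding genes in Ensembl release 115 (BDGP6.54), with sequence from NCBI's Release 6 genome. The strongest summit within 1 kb stood for a gene. Counting used Python 3.11.15, numpy 2.4.6 and pandas 2.3.3, and was tested on simulated data. For a share of 0 the limit given is 3 counts of the total, and covers counting error only. Genes named by rule were the 10 strongest bound members, the 5 members on each side of the threshold, all paralogue pairs, the stalk genes and sta, members with no relaxed pooled summit, the 3 with the largest ratio of ranks between replicates in each direction, bound members with CAGGTAG or TATCGATA near the summit, and the 4 strongest bound genes of each pathway list. Other members were named for a known role, for a nearer neighbour or as low examples, after their values were seen. A few members that the rule names are not reported here by name. Of the 8 listed regulators, Tor was not matched. The members, lists and words were chosen with earlier results of these data known. Lists on dm3 were not used here. No test was run, since there was 1 group of 2 samples.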

Additional observations from a re-analysis of the deposited data

How the results depend on the processing

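The number of bound members was 53, and lay between 48 and 57 with windows of 200 bp, 500 bp and 2 kb, with only the start farthest upstream, with only the gene nearest to each summit, and with peak intervals in place of summits. Without replicate 2 or without replicate 3, with the strongest 2876 peaks of the other one, it was 51 to 51. With only thresholded peaks above the median signal it fell to 35, small subunit members to 9 (from 20), and pairs with both copies bound to 1 (from 3), since fewer peaks were counted; the median signal was then 132 and the median distance 54 bp. With only the gene nearest to each summit, pairs with both copies bound also came to 1. The median distance of 47 bp was 41 bp within 500 bp, 63 bp within 2 kb, and 41 to 45 bp without replicate 2 or without replicate 3; the median signal within 2 kb was 107. The median signal has no value with a replicate left out, because each list has its own scale. Members with TATCGATA within 50 bp of the summit were 7 (11 within 100 bp), and those with GGTCACAC within 250 bp were 12 (7 within 100 bp). The TCT word at the start farthest upstream alone was in 30 members (55 at any start), an alternative chosen after seeing the data. No paired analysis was possible because there was 1 group.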

Other observations

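Introns of ribosomal protein genes often hold small nucleolar RNA genes, which guide the modification of ribosomal RNA. In the annotation 29 of the 92 members (31.5%) had such a gene inside them, against 0.687% of all protein-coding genes. Of the 29 hosts 17 were bound (58.6%), and of the 63 other members 36 were (57.1%). Over all genes 45.8% of the 96 hosts and 19.5% of the others were bound.

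Members with 1 annotated start were bound at 24 of 47 (51.1%), those with 2 starts at 19 of 29 (65.5%) and those with 3 or more at 10 of 16 (62.5%). Over all genes the shares were 15.3%, 27.9% and 40.6%. Bound members were found on every major arm, at 10 of 19 on 2L, 11 of 20 on 2R, 9 of 14 on 3L, 13 of 23 on 3R and 10 of 15 on X. Over all genes the share bound on these arms lay between 16.6% on X and 21.5% on 3R.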
